A study of Homo sapiens with 80 samples.

Results

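Human pluripotent stem cells were followed from day 4-5 to day 6-7 of directed differentiation to cardiomyocytes, in 6 differentiations that each gave 1 total RNA library at either stage. The 12 libraries are 12 of the 24 of their sequencing experiment and of the 80 libraries of the series. They were chosen as every library of that experiment from day 4 or 5 (H9 and IMR90-4 on day 5, WTC11 on day 4) and from day 6 or 7 (H9 and IMR90-4 on day 7, WTC11 on day 6), and the later library of a differentiation was compared with the earlier one. H9 is an embryonic stem cell line, and IMR90-4 and WTC11 are induced pluripotent stem cell lines. No line carried a transgene or mutation that the labels name. Each line supplied 1 differentiation that ended with high cardiomyocyte purity and 1 with low purity, as scored at the end, on day 16, by flow cytometry of a troponin of heart muscle (cTnT). The high purity differentiations were H9 at passage 58, IMR90-4 at passage 55 and WTC11 at passage 81. The low purity ones were H9 at passage 55, IMR90-4 at passage 75 and WTC11 at passage 69. All cultures had received CHIR99021, which activates WNT signalling by inhibiting the kinase GSK3, on day 0, and IWP2, which blocks secretion of WNT ligands, on day 2 (WTC11) or day 3 (H9 and IMR90-4). IWP2 was withdrawn at day 4-5, and insulin entered the medium at day 6-7. H9 and IMR90-4 also had a change of medium on day 1 and conditioned medium with IWP2, so line and medium schedule cannot be told apart where WTC11 differs from both. Each line gives only 1 differentiation of each purity class.

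The interval lies between the specification of mesoderm and the onset of beating. In this scheme a pulse of WNT signalling first induces a primitive streak state marked by TBXT, EOMES and MESP1, and blocking WNT afterwards allows cardiac mesoderm to form. Cardiac progenitors then switch on a core of transcription factors that includes NKX2-5, TBX5, GATA4 and MEF2C, followed by the genes of the contractile apparatus. Paraxial mesoderm, endoderm and endothelium can arise from neighbouring cells of the same culture.

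Total counts per library were 25960651 to 40357968 at day 4-5 and 17990882 to 32750497 at day 6-7. The later library was the shallower in 5 of 6 pairs (mean log2 ratio -0.41 ± 0.34, SD, n = 6; two-sided exact sign-flip permutation p = 0.0625, where 0.0312 is the smallest possible). The small nuclear RNA RN7SK took 19.5% to 32.2% of TPM, the authors' length-scaled share of transcripts. The mitochondrial ribosomal RNAs RNR1 and RNR2 took 0.69% of TPM in IMR90-4 low purity at day 7 and 0.24% in WTC11 high purity at day 4, beside 0.011% or less in the 10 other libraries. The labels do not say whether libraries were prepared together, so p-values measure the spread between these differentiations.

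One differentiation stood apart. Across the 20203 genes tested, the change in H9 low purity correlated with the change in each of the 5 other differentiations at r = 0.09 to 0.16, while the 10 pairs among the others gave r = 0.55 to 0.72 (a description across genes, which are not independent replicates). At day 4-5 it already held 28.9 TPM of the troponin gene TNNT2, beside 0.613 to 5.79 TPM in the others. The fibrillar collagen gene COL3A1 was at 368 TPM there against 0.232 to 2.35 TPM, and the streak gene EOMES at 0.631 TPM against 8.68 to 24.3 TPM. The cardiac progenitor gene ISL1 was at 0.36 TPM in H9 low purity, and the lowest of the other 5 libraries had 4.69 TPM. Results below are therefore given with all 6 differentiations and, where the value moves, without H9 low purity.

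From day 4-5 to day 6-7, most genes tested of the contractile apparatus rose (18 of 23), as did 4 of 12 genes of calcium handling and 8 of 23 cardiac transcription factors. Among genes of the primitive streak 8 of 14 fell, and among those of paraxial mesoderm 7 of 16. Genes were called changed at a Benjamini-Hochberg adjusted p under 0.05 in a paired quasi-likelihood fit of edgeR and a change of at least 2-fold. By that rule 1150 of 20203 genes (5.69%) were called, 741 higher (3.67%) and 409 lower (2.02%) at day 6-7, around a median log2 fold change over all genes of -0.001. Of the called genes, 868 (4.3% of genes tested) moved the same way in all 6 pairs, 559 up (2.77%) and 309 down (1.53%). A single sign in all 6 pairs, called or not, was seen in 20.2% of genes. The sign of a pair can rest on very few counts. In H9 low purity GYPE and RIPPLY1 had 1 count and then 0, and MYBPC3 had 4 and then 4. The 6 libraries of day 6-7 did not overlap the 6 of day 4-5 for 1.48% of genes. Among the 282 called genes without a single sign, H9 low purity alone went the other way for 252. It shared the direction of the call for 897 of the 1150 genes, while each of the other differentiations did so for 1138 to 1148. Without H9 low purity 1757 of 20320 genes were called (8.65%), 1116 up (5.49%) and 641 down (3.15%), and 1092 of the 1150 were among them. Leaving out another single differentiation gave fewer calls: 759 without H9 high purity, 658 and 639 without IMR90-4 high and low purity, and 715 and 899 without WTC11 high and low purity. The 3 high purity pairs alone gave 1407 calls and the 3 low purity pairs alone, which include H9 low purity, gave 1.

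**Figure D1:**
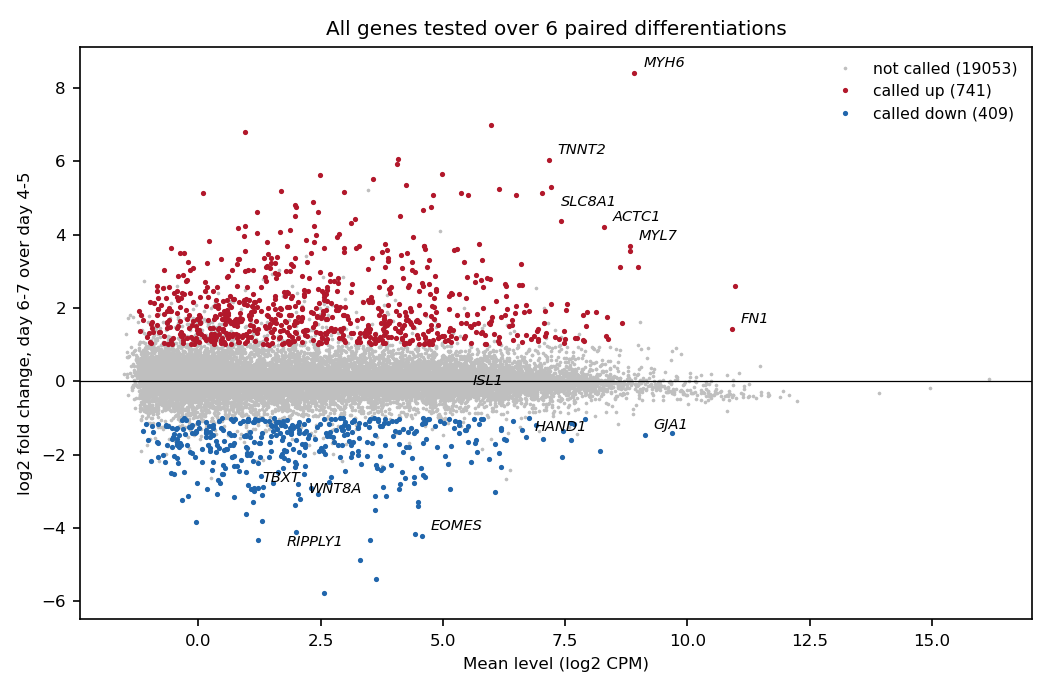
Log2 fold change from day 4-5 to day 6-7 (y axis) against the mean level in log2 CPM (counts scaled to library size) (x axis) for each of the 20203 genes tested, with 741 genes called up in red and 409 called down in blue. The contractile genes MYH6, TNNT2, ACTC1 and MYL7 combined large rises with high levels, EOMES and RIPPLY1 were among the large falls, and ISL1 lay near 0.

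Rises were ranked among called genes with 1 sign in all 6 pairs and a mean log2 CPM of at least 2. The largest of these were led by muscle genes. MYH6 (log2 fold change 8.41) and TTR (7.00) were among the genes outside this ranking, since they did not rise in H9 low purity. MYO18B, an unconventional myosin of the sarcomere, rose from 0.012, 0.026 and 0.0389 TPM (lowest, median and highest of 6 libraries) at day 4-5 to 0.158, 2.11 and 5.68 TPM at day 6-7. TNNT2, which encodes the cardiac troponin T by which purity was later scored (chr1:201359008-201377762, GRCh38), rose from 0.613, 2.8 and 28.9 TPM to 46.3, 233 and 397 TPM. The 2 stages did not overlap for either gene, and for both the lowest library of day 6-7 was H9 low purity. The fitted log2 fold changes were 6.06 (SE 0.79, adjusted p = 0.0054) for MYO18B and 6.03 (SE 1.04, adjusted p = 0.0123) for TNNT2. Here and below, SE is derived from the F statistic of the fit and is not the spread of the 6 pair changes. That spread (SD, n = 6) was 2.29 for MYO18B and 2.58 for TNNT2. MYBPC3, encoding cardiac myosin-binding protein C, went from 0.0352, 0.126 and 0.268 TPM to 0.0574, 7.41 and 12.6 TPM (log2 fold change 5.51, SE 0.50, adjusted p = 0.0017). Its 0.0574 TPM belonged to H9 low purity and was the only value of day 6-7 inside the range of day 4-5. The sodium-calcium exchanger gene SLC8A1 rose by 5.29 (log2, SE 0.89) and PLN, encoding the calcium pump inhibitor phospholamban, by 4.75 (log2, SE 0.60). The smooth muscle actin gene ACTA2, also expressed early in heart muscle, went from 0.391, 0.875 and 6.79 TPM to 22.3, 34.3 and 157 TPM, with no overlap and a log2 fold change of 5.14 (SE 0.90).

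Of the other large rises, 5 genes that are not contractile are described. SGPP2, a sphingosine phosphate phosphatase, rose by 5.93 (log2, SE 0.64). SLC16A12, a transporter of the monocarboxylate family, rose by 5.08 with the smallest SE of the 11 rises described, 0.24. TECRL, a gene of the sarcoplasmic reticulum mutated in inherited arrhythmia, was at 0.193 to 1.2 TPM at day 4-5 in 5 libraries but at 24.1 TPM in H9 low purity, and at 20.6 to 56.1 TPM at day 6-7 (log2 fold change 5.25, SE 0.92). The leukotriene receptor gene CYSLTR2 rose by 5.16 (SE 0.46). LOC100506114, a locus without a gene name in the table, rose by 5.35 (SE 0.87). In each of these 11 genes the call held whichever 1 differentiation was left out, and the smallest rise was that of H9 low purity, from 0.27 for LOC100506114 to 2.61 for SLC16A12 and CYSLTR2.

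**Figure D2:**
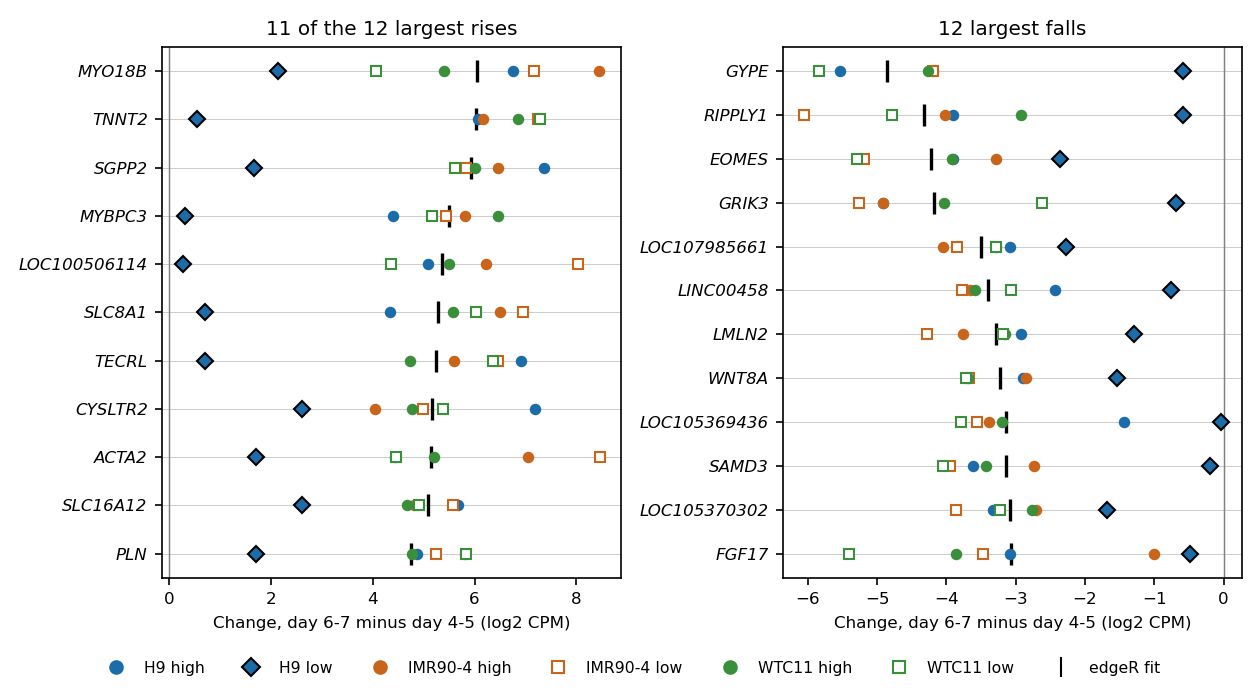
Change in log2 CPM from day 4-5 to day 6-7 (x axis) of 11 of the 12 genes with the largest rises and of the 12 with the largest falls (y axis), 1 symbol per differentiation and a black bar for the edgeR estimate. The genes were chosen among those called with 1 sign in all 6 pairs, so the single sign of each row follows from the choice. The diamond of H9 low purity is the value nearest 0 in every row.

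Members of the thick and thin filaments and of the Z disc rose together. Of 29 genes on a sarcomere and myofibril list, 23 were tested; 18 rose, 0 fell and 5 were not called, with a median log2 fold change of 3.12. The share called higher among all genes was 3.67%. Without H9 low purity 23 of 26 tested members rose, and the median was 4.10. All 6 libraries of day 6-7 lay above all 6 of day 4-5 for 6 of the 23 members, beside 1.05% of all genes, and without H9 low purity this held for 19 of 23, beside 4.26%. Summed over the list, the level at day 6-7 was 1830 to 7630 TPM in 5 differentiations and 734 TPM in H9 low purity. At day 4-5 the sum was 210 to 593 TPM. The call held whichever 1 differentiation was left out for 10 of the 18 members, among them TNNT2, MYH6, MYBPC3, ACTC1, LDB3 and UNC45B.

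MYH6, encoding the atrial and early embryonic alpha myosin heavy chain (chr14:23381990-23408277), had the largest change of the list. It was at 0.0409, 0.343 and 1.45 TPM at day 4-5 and at 0.0305, 200 and 411 TPM at day 6-7. In 5 differentiations it reached 94.2 to 411 TPM, far above every value of day 4-5, while H9 low purity went from 0.0409 to 0.0305 TPM. The log2 fold change was 8.41 (SE 0.72, adjusted p = 0.00141), and 5 of 6 pairs rose. The 6 pair changes had an SD of 3.73, a wider spread than the SE of the fit conveys. The muscle myosin chaperone UNC45B behaved alike, at 19 to 63.2 TPM in 5 libraries of day 6-7 and at 0.0212 TPM in H9 low purity (log2 fold change 5.08, SE 0.46). MYL7, the atrial regulatory light chain, was at 418 to 2310 TPM at day 6-7 in 5 differentiations, and in H9 low purity it went from 261 to 255 TPM. Its fitted change was 3.68 (SE 0.71), and the call was lost without H9 high purity, IMR90-4 high purity, IMR90-4 low purity or WTC11 high purity. The log2 fold changes of ACTC1 (cardiac alpha actin), LDB3 (a Z-disc protein), MYOZ2 and XIRP1 were 4.20, 4.68, 5.20 and 5.07. XIRP1 lost its call without the same 4 differentiations as MYL7, and MYOZ2 without IMR90-4 high purity. The adult cardiac troponin I gene TNNI3 had a log2 fold change of 0.49 and was not called, while the slow skeletal and fetal isoform TNNI1 rose by 3.54. The ventricular light chain gene MYL2 was listed at 0 in 5 of 6 libraries of day 6-7 and at 0.0549 TPM in the other, and was not tested. MYH7, the beta myosin heavy chain, was listed at 0 at both stages in H9 low purity, and in the 5 others it was at 0.00491 to 0.0333 TPM at day 4-5 and 0.338 to 1.46 TPM at day 6-7. It did not pass the filter on low counts over all 6 differentiations, and without H9 low purity it was called up (log2 fold change 5.02, adjusted p = 0.00019). MYH6 and MYH7 are adjacent and similar in sequence, so reads could be split between them. TTN, the giant titin gene, was left out of the counts and was described by TPM, at 3.11 to 24.9 TPM at day 4-5 and 2.71 to 98.8 TPM at day 6-7, with H9 low purity at the lowest value of both stages. In bulk libraries a larger share of muscle cells and more RNA of these genes per cell cannot be told apart.

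Promoter sequences of the RefSeq annotation (GRCh38.p14) were matched for 19 of the 29 genes of the list, with 27 start sites. The 250 bases before each start were searched on both strands for the CArG box, the motif of serum response factor, and for the MEF2 site, since the genes that encode the MEF2 factors MEF2A and MEF2C rose in the same interval. A CArG box was found in 5 of the 27 windows, in the genes ACTC1, LDB3, MYL7 and MYOM1, and in 1.16% of all 35116 windows of the annotation. A MEF2 site was found in 5 of the 27, in MYBPC3, MYOZ2, SMPX, TTN and XIRP1, and in 1.75% of all windows. For the genes called up as a whole, 3.03% of 760 windows had a CArG box and 3.55% a MEF2 site, beside 1.07% and 1.22% of the 19422 windows of all genes tested. For the genes called down, 0.649% of 308 windows had a CArG box and 2.6% a MEF2 site. On the same 27 windows TATAAA was found in 3, the GATA motif AGATAA in 7, the TCF motif CTTTGAT in 1 and the T-box motif AGGTGTGA in 0, beside 10.7%, 9.17%, 2.26% and 0.786% of all windows. TATAAA was in 12.4% of windows of genes called up, 12.7% of those called down and 6.85% of those tested, and AGATAA in 10.4%, 12% and 6.34%. Motifs can overlap each other, and a match is a description of letters only. The 150 bases before the start are printed for 5 genes of the list that carry a motif there, 5′ to 3′ on the strand of the gene, with the motif in capitals: the CArG box in MYL7, ACTC1 (1 of its 3 start sites) and LDB3 (1 of 2), and the MEF2 site in MYBPC3 and XIRP1.
MYL7 (chr7:44141333-44141482, minus strand): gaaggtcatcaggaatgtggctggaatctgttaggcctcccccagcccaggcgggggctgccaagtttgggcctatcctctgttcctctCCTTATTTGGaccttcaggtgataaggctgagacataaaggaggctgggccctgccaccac
ACTC1 (chr15:34795550-34795699, minus strand): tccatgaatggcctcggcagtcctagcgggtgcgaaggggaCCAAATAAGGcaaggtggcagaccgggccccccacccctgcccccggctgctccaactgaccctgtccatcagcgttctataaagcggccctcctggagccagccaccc
LDB3 (chr10:86668361-86668510, plus strand): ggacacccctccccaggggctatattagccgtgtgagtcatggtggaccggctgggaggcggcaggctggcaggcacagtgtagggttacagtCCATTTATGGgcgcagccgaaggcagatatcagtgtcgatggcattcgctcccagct
MYBPC3 (chr11:47352703-47352852, minus strand): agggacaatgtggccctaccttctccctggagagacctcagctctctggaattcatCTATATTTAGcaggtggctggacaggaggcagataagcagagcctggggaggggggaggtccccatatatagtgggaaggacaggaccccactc
XIRP1 (chr3:39192596-39192745, minus strand): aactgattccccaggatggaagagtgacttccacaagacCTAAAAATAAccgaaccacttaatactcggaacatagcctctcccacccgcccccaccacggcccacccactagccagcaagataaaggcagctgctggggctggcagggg
The CArG box began 61 bases before the start in MYL7, 109 in ACTC1 and 57 in LDB3, and the MEF2 site 94 bases before it in MYBPC3 and 111 in XIRP1.

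Genes of calcium handling and electrical activity changed unevenly. On the calcium list 4 of 12 tested members rose and 0 fell (median 1.67): PLN, SLC8A1, JPH2, which tethers the sarcoplasmic reticulum to the cell membrane, and CACNA1C, the pore of the L-type calcium channel. Among all genes 3.67% were called higher. Without H9 low purity 7 of 12 rose, beside 5.49% of all genes. PLN was at 0.129, 0.598 and 2.03 TPM and then at 7.34, 19.3 and 39.8 TPM, with no overlap. The calcium release channel RYR2 was at 0.493 to 3.62 TPM in 5 libraries of day 4-5 and 22.9 TPM in H9 low purity. At day 6-7 it was at 5.29 to 20.2 TPM, with H9 low purity down to 8.42 TPM, and it was not called (log2 fold change 2.54, adjusted p = 0.0711). It was called up without H9 low purity, at 3.12 (adjusted p = 0.000694). Among ion channels and gap junction proteins 5 of 16 rose (HCN4, CACNA1D, KCNQ1, KCNA5 and KCND3), 2 fell and 9 were not called (median 0.08). HCN4, the pacemaker channel, rose from 0.954, 1.6 and 3.24 TPM to 3.44, 6.51 and 7.27 TPM (log2 fold change 1.65, SE 0.23), and the calcium channel CACNA1D rose by 3.28 (SE 0.52). The genes that fell were the connexins GJA5 (-1.71, SE 0.24) and GJA1 (-1.46, SE 0.35). GJA1 was at 286 to 499 TPM at day 4-5 in 5 differentiations and at 64.7 to 292 TPM at day 6-7, and in H9 low purity it went from 107 to 123 TPM. HCN4, CACNA1D and GJA5 kept the call whichever differentiation was left out. GJA1 and KCNQ1 lost it without H9 high purity, IMR90-4 high purity, IMR90-4 low purity or WTC11 high purity, KCND3 without IMR90-4 high purity, IMR90-4 low purity or WTC11 low purity, and KCNA5 without H9 high purity. Of 8 hormones and growth factors, NPPA, NPPB and the apelin receptor ligand APELA rose and NRG1 fell. The natriuretic peptide gene NPPB went from 7.2, 17.3 and 32.3 TPM to 47.5, 79.3 and 238 TPM, with no overlap (log2 fold change 2.33, SE 0.23, adjusted p = 0.00199). The call of NPPA was lost without IMR90-4 high purity or IMR90-4 low purity, and that of NRG1 without any 1 of the 5 differentiations other than H9 low purity.

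Among cardiac transcription factors, 8 of 23 tested rose, 1 fell and 14 were not called (median 0.53). Of all genes 3.67% were called higher and 2.02% lower. Without H9 low purity 10 of the factors rose and 1 fell. The calls of TBX5, MYOCD and NR2F2 were lost without any 1 of the 5 differentiations other than H9 low purity, and the 6 others held. MEF2C, a partner of NKX2-5 and GATA4 in the early heart, went from 0.121, 2.24 and 6.98 TPM to 0.861, 57 and 91.9 TPM. At day 6-7 H9 low purity was at 0.861 TPM and the 5 others at 19 to 91.9 TPM. The log2 fold change was 4.38 (SE 0.70), and MEF2A, a relative with wider expression, rose by 1.27 (SE 0.18). SMYD1, a muscle methyltransferase, rose by 5.12 (SE 0.72) with 38.8 to 105 TPM in 5 libraries of day 6-7 and 0.0137 TPM in H9 low purity. NKX2-5 (chr5:173232109-173235357) went from 0.706, 4.16 and 7.38 TPM to 1.09, 60.7 and 99.3 TPM (log2 fold change 3.31, SE 0.58, adjusted p = 0.0129). It was at 17.4 to 99.3 TPM at day 6-7 in 5 differentiations, and in H9 low purity it went from 1.37 to 1.09 TPM. HAND1, a factor of the first heart field and of extraembryonic mesoderm, fell in all 6 pairs, from 48.5, 109 and 168 TPM to 20.3, 32.1 and 109 TPM (log2 fold change -1.52, SE 0.23). GATA4 was higher in all 6 pairs but did not reach 2-fold (0.87), and it did without H9 low purity (1.00). GATA6 (0.27) and TBX20 (0.53) were not called with or without H9 low purity.

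ISL1, the marker of second heart field progenitors, was at 0.36, 15.9 and 26.8 TPM at day 4-5 and at 0.311, 12.8 and 20.4 TPM at day 6-7. The stages overlapped and the change was not called (log2 fold change -0.26, SE 0.17, adjusted p = 0.33). On the second heart field list of 13 genes, SEMA3C, a guidance ligand of the outflow tract, rose by 1.21 (SE 0.23), and 11 genes were not called. SEMA3C lost its call without IMR90-4 low purity.

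Genes of the primitive streak and of nascent mesoderm fell. Of 14 tested, 8 fell, 0 rose and 6 were not called (median -1.62; 2.02% of all genes were called lower), and 10 fell without H9 low purity. All 6 libraries of day 6-7 lay below all 6 of day 4-5 for 0 of the 14, beside 0.426% of all genes. Without H9 low purity the 5 libraries of day 6-7 lay below the 5 of day 4-5 for 5 of the 14, beside 2.94%. MIXL1, LHX1 and FGF4 each lost the call without IMR90-4 low purity, WTC11 high purity or WTC11 low purity, LHX1 also without H9 high purity and FGF4 without IMR90-4 high purity. EOMES, a T-box factor needed for mesoderm and definitive endoderm (chr3:27715949-27722711), went from 0.631, 17 and 24.3 TPM to 0.116, 0.743 and 1.61 TPM. Every differentiation fell, and without H9 low purity the stages did not overlap (log2 fold change -4.22, SE 0.35, adjusted p = 0.00136). MESP1, at the head of the cardiovascular programme, went from 1.35, 11.1 and 17 TPM to 0.605, 1.8 and 4.23 TPM (log2 fold change -2.29, SE 0.39). TBXT, the brachyury gene, was already at 0.288 to 7.59 TPM at day 4-5, below its 0.708 to 212 TPM at day 2-3, and fell further to 0.0352 to 0.687 TPM (log2 fold change -2.92, SE 0.43). The NODAL gene itself was not called (0.23), nor was its antagonist CER1 (-2.30, adjusted p = 0.144), which changed by -4.35 and -5.30 in the WTC11 differentiations, by -1.76 to -0.52 in IMR90-4 low purity and H9 high purity, and by 0.13 and 0.21 in H9 low purity and IMR90-4 high purity. CER1 was called down without H9 low purity, at -2.79 (adjusted p = 0.0495).

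Genes of presomitic and paraxial mesoderm, the source of the somites, fell in 7 of 16 tested and rose in 0 (median -1.02). The share called lower among all genes was 2.02%. RIPPLY1, a repressor that marks the forming somite boundary, was at 0.0339, 20.5 and 58.2 TPM at day 4-5, with H9 low purity the lowest, and at 0, 1.13 and 1.94 TPM at day 6-7 (log2 fold change -4.32, SE 0.42). In the 5 others it stood at 7.41 to 58.2 TPM at day 4-5, beside 0 to 2.57 TPM at day 2-3, and its highest level among the 4 stages sampled was at day 4-5. TBX6, DLL3, RIPPLY2, TCF15, EBF2 and the retinoic acid hydroxylase CYP26A1 also fell. TCF15 and DLL3 lost the call without IMR90-4 low purity or WTC11 low purity, and CYP26A1 without IMR90-4 high purity. The forkhead gene FOXC1 was lower in 5 pairs and higher in H9 low purity, and was not called (-1.40, adjusted p = 0.0612). It was called down without H9 low purity, at -1.76 (adjusted p = 0.00165).

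In each list of signalling genes most members were not called, as for all genes tested, of which 5.69% were called. WNT8A, a WNT ligand of the streak, fell from 0.523, 2.31 and 3.97 TPM to 0.153, 0.229 and 0.56 TPM (log2 fold change -3.22, SE 0.30), and WNT5A, a ligand of noncanonical signalling, rose by 1.15 (SE 0.24), a call that was lost without H9 high purity, IMR90-4 high purity, IMR90-4 low purity or WTC11 low purity. Among 15 feedback targets of WNT, SP5 and LGR5 fell, by 1.68 and 2.38, and the secreted antagonist FRZB rose by 2.28. The median of the 15 was -0.52, and within single differentiations the median change was -0.77 to -0.17. Without the fold threshold 6 of the 15 passed, beside 3001 of the 20203 genes tested. In all 6 pairs 5 of the 15 fell and 1 rose, beside 20.2% of genes with a single sign. AXIN2, the most general target, was lower in all 6 pairs but by 0.52 only, which is under the 2-fold rule. FRZB was at 1.83, 3.34 and 10.5 TPM and then at 8.9, 15.2 and 57.5 TPM, with the highest value of each stage in H9 low purity. Of 16 genes of FGF signalling, FGF17 fell by 3.07 (SE 0.70) and FGF18 rose by 1.27 (SE 0.27). FGF17 lost its call without H9 high purity, IMR90-4 low purity or WTC11 high purity, and FGF18 without H9 high purity or IMR90-4 low purity. In the BMP group of 19, the ligands BMP5 and BMP7 and the pseudoreceptor BAMBI rose by 1.20, 1.10 and 1.09, and the targets MSX1 and MSX2 fell by 1.29 and 1.34. Of these, BAMBI and BMP5 lost the call without any 1 of the 5 differentiations other than H9 low purity, BMP7 without IMR90-4 high purity, and MSX2 without H9 high purity, IMR90-4 high purity or IMR90-4 low purity. DLL3 was the only 1 of 13 NOTCH genes called. In the retinoic acid group of 14, RBP4 rose by 2.76, and CYP26A1, the receptor gene RARG and the synthetic enzyme gene ALDH1A3 fell. RARG lost its call without IMR90-4 low purity and ALDH1A3 without WTC11 high purity.

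**Figure D3:**
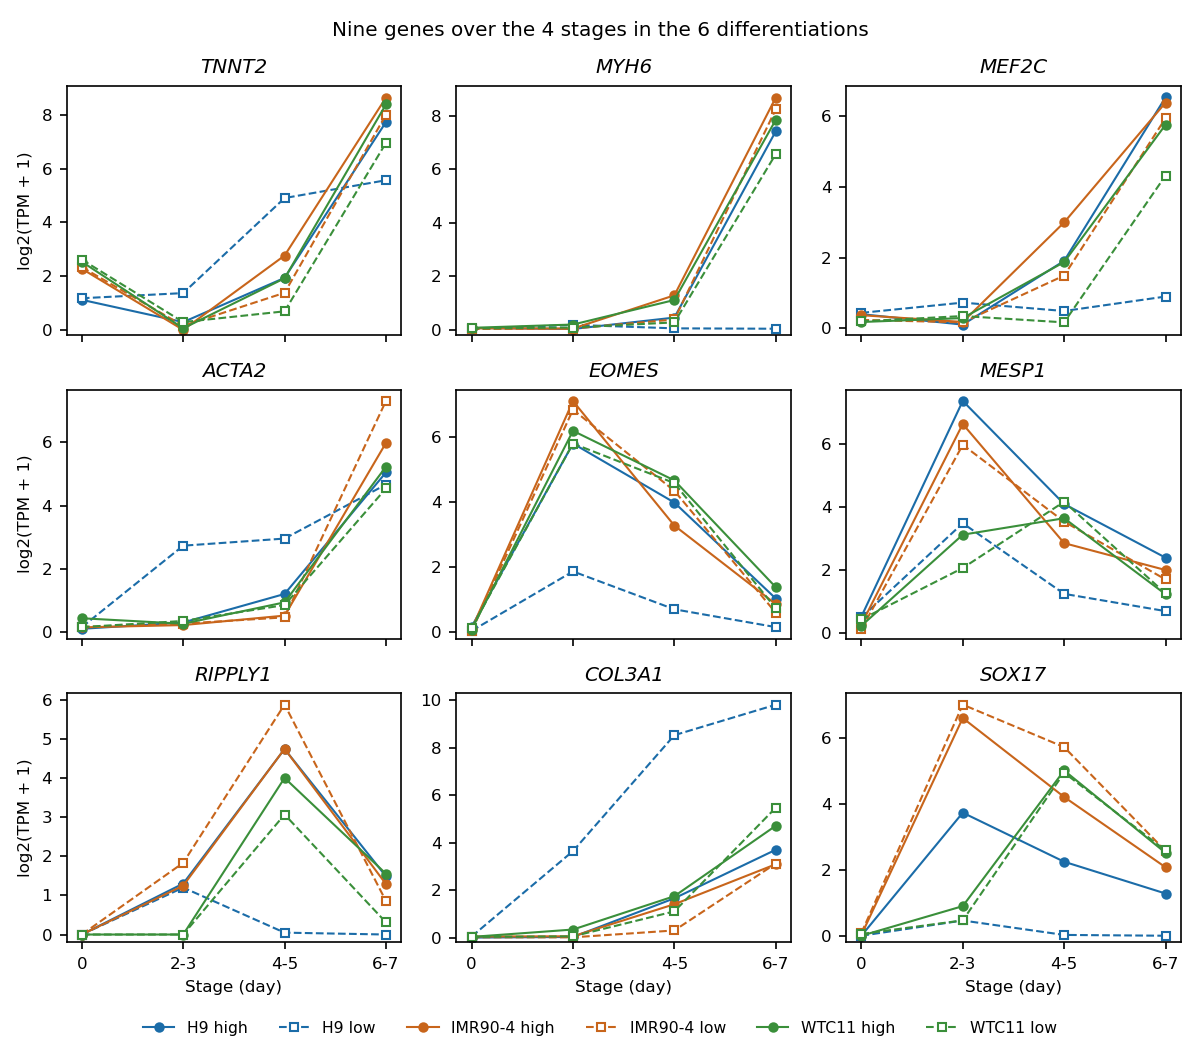
Level in log2(TPM + 1) (y axis) of 9 genes at the 4 stages (x axis) in the 6 differentiations, with solid lines for high and dashed lines for low purity. EOMES peaked at day 2-3 and RIPPLY1 at day 4-5 in 5 differentiations, TNNT2, MYH6 and MEF2C were highest at day 6-7 there, and the dashed blue line of H9 low purity ran apart, with COL3A1 at 897 TPM and MYH6 at 0.0305 TPM at day 6-7.

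The remaining large falls included SAMD3, the glutamate receptor subunit GRIK3 (-4.17, SE 0.47), the pluripotency-associated long noncoding RNA LINC00458 (-3.40, SE 0.20), the putative protease gene LMLN2 and the loci LOC107985661, LOC105369436 and LOC105370302. GYPE had the largest fitted fall of the 12 chosen with 1 sign in all 6 pairs, -4.86 (SE 0.31). It is nearly identical to GYPB, so reads could be split between them. GYPB was lower by 5.40, and H9 low purity, with 0 to 0.0106 TPM, was the pair that did not fall. Of 11 pluripotency genes tested, 5 fell (DPPA2, ZFP42, TDGF1, PRDM14 and ESRG) and 0 rose (median -1.04), beside 2.02% of all genes called lower. ZFP42, a zinc finger gene of pluripotent cells, was at 4.52, 19.5 and 40.5 TPM and then at 2.63, 8.74 and 21.2 TPM, with all 6 pairs falling by 0.79 to 1.23 (log2 fold change -1.04, SE 0.08, adjusted p = 0.000791). All 5 kept the call whichever differentiation was left out. SOX2 was not called. It was at 102 and 120 TPM in WTC11 low purity and at 24.2 and 20.6 TPM in WTC11 high purity, beside 1.58 TPM or less in the 4 other differentiations. Among 5 neuroectoderm genes tested, OTX2 and ZIC2 fell and 3 were not called. The median of the 5 fitted changes was 0.49. Within single differentiations the median change of the list was 0.32 in H9 low purity and -1.26 to -0.13 in the others. Both called genes fell in all 6 pairs, OTX2 from 1.06, 55.8 and 103 TPM to 0.148, 31.8 and 80.5 TPM, and OTX2 lost its call without H9 low purity, IMR90-4 high purity or IMR90-4 low purity.

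Markers of other cell types moved in the same interval as the contractile genes. Of 12 endothelial genes tested, 7 rose and 0 fell (median 1.99), while 3.67% of all genes were called higher. Without H9 low purity 11 of 14 rose, beside 5.49% of all genes. VE-cadherin (CDH5) went from 0.0144, 0.0294 and 0.452 TPM to 0.969, 1.51 and 4.06 TPM, with no overlap (log2 fold change 4.08, SE 0.75). PLVAP rose by 3.32 (SE 0.45), TIE1 by 2.01 (SE 0.29) and the blood and endothelial factor TAL1 by 3.69 (SE 0.93). The calls of TAL1 and PECAM1 were lost without any 1 of the 5 differentiations other than H9 low purity, and that of ESAM without IMR90-4 high purity, IMR90-4 low purity or WTC11 high purity. The summed level of the list, 37 to 131 TPM at day 4-5 and 48.2 to 59.9 TPM at day 6-7, was lower at day 6-7 in 5 of 6 pairs. The VEGF receptor gene KDR, also expressed in mesodermal progenitors, had 20.5 to 114 TPM of that sum at day 4-5 and 21.8 to 30.1 TPM at day 6-7, and was not called (log2 fold change -0.87). Of 3 haematopoietic genes with enough counts, 0 were called, and the embryonic globin HBE1 was at 1.68 to 2.99 TPM at day 6-7 outside H9 low purity and at 44 TPM in it.

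Smooth muscle genes rose in 5 of 7 tested (ACTA2, TAGLN, CNN1, LMOD1 and CALD1, median 1.65), genes that early cardiomyocytes share. The share called higher among all genes was 3.67%. CNN1, encoding calponin, went from 10.7, 13.9 and 19.1 TPM to 28.1, 45.1 and 76.7 TPM with no overlap (log2 fold change 1.65, SE 0.19). The list summed to 43.1 to 93 TPM at day 4-5 and 156 to 379 TPM at day 6-7, without overlap. LMOD1 lost its call without any 1 of the 5 differentiations other than H9 low purity. H9 low purity, where the sarcomere list had a median change of 0.28, had CNN1 at 14.3 and 68.2 TPM and TAGLN at 14.4 and 87.4 TPM. Of 21 collagen and matrix genes, FN1, COL1A1, COL3A1 and LUM rose and 0 fell (median 0.33). FN1, encoding fibronectin, went from 16.8, 139 and 235 TPM to 35.9, 426 and 620 TPM (log2 fold change 1.43, SE 0.18), with H9 low purity the lowest at both stages. COL3A1 rose by 3.11 (SE 0.58), at 7.51 to 43.4 TPM at day 6-7 in 5 differentiations and 897 TPM in H9 low purity. COL1A1 lost its call without H9 high purity, IMR90-4 low purity or WTC11 low purity, and LUM without IMR90-4 high purity, WTC11 high purity or WTC11 low purity. Summed over the fibroblast list, the level at day 6-7 was 212 to 465 TPM in the 5 and 1720 TPM in H9 low purity, where the stromal markers DCN and LUM stood at 68.7 and 322 TPM.

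Endoderm genes split. SOX17, an early factor of definitive endoderm, fell from 0.0173, 23.7 and 51.8 TPM to 0, 3.97 and 5.01 TPM (log2 fold change -2.62, SE 0.24), while FOXA1 and the liver and yolk sac secretory genes AFP, APOA1, APOA2, APOB and TTR rose (median of 12 tested 0.94). Without H9 low purity 4 of 11 tested rose: FOXA1 was not called, and AFP did not pass the filter on low counts. FOXA1 also lost its call without either IMR90-4 or either WTC11 differentiation, AFP without IMR90-4 high purity or either WTC11 differentiation, and APOB without H9 high purity, either IMR90-4 differentiation or WTC11 high purity. APOA2 went from 0.0855, 0.877 and 8.43 TPM to 0.255, 22.1 and 143 TPM (log2 fold change 4.02, SE 0.35, adjusted p = 0.00111). TTR, encoding transthyretin, was at 0 to 4.62 TPM at day 4-5 and at 14.2 to 462 TPM at day 6-7 outside H9 low purity (log2 fold change 7.00, SE 1.03). The endoderm list summed to 12.8 to 239 TPM at day 4-5 and 25.2 to 913 TPM at day 6-7, higher at day 6-7 in all 6 pairs. None of 9 epicardial genes was called with all 6 differentiations, and 1 was called up without H9 low purity. The epicardial factor WT1 was the nearest (log2 fold change 2.35, adjusted p = 0.0514), at 16.8 and 39.5 TPM in H9 low purity and at 0.542 TPM or less in the 5 others. It was the gene called without H9 low purity, at 3.79 (adjusted p = 0.0102). One of 8 amnion and surface epithelium genes was called, IGFBP3 (3.21, SE 0.63), a growth factor binding protein made by many cell types, whose call was lost without H9 high purity, either IMR90-4 differentiation or WTC11 high purity. How far these cells or their RNA take part in the changes of shared genes was not tested.

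**Figure D4:**
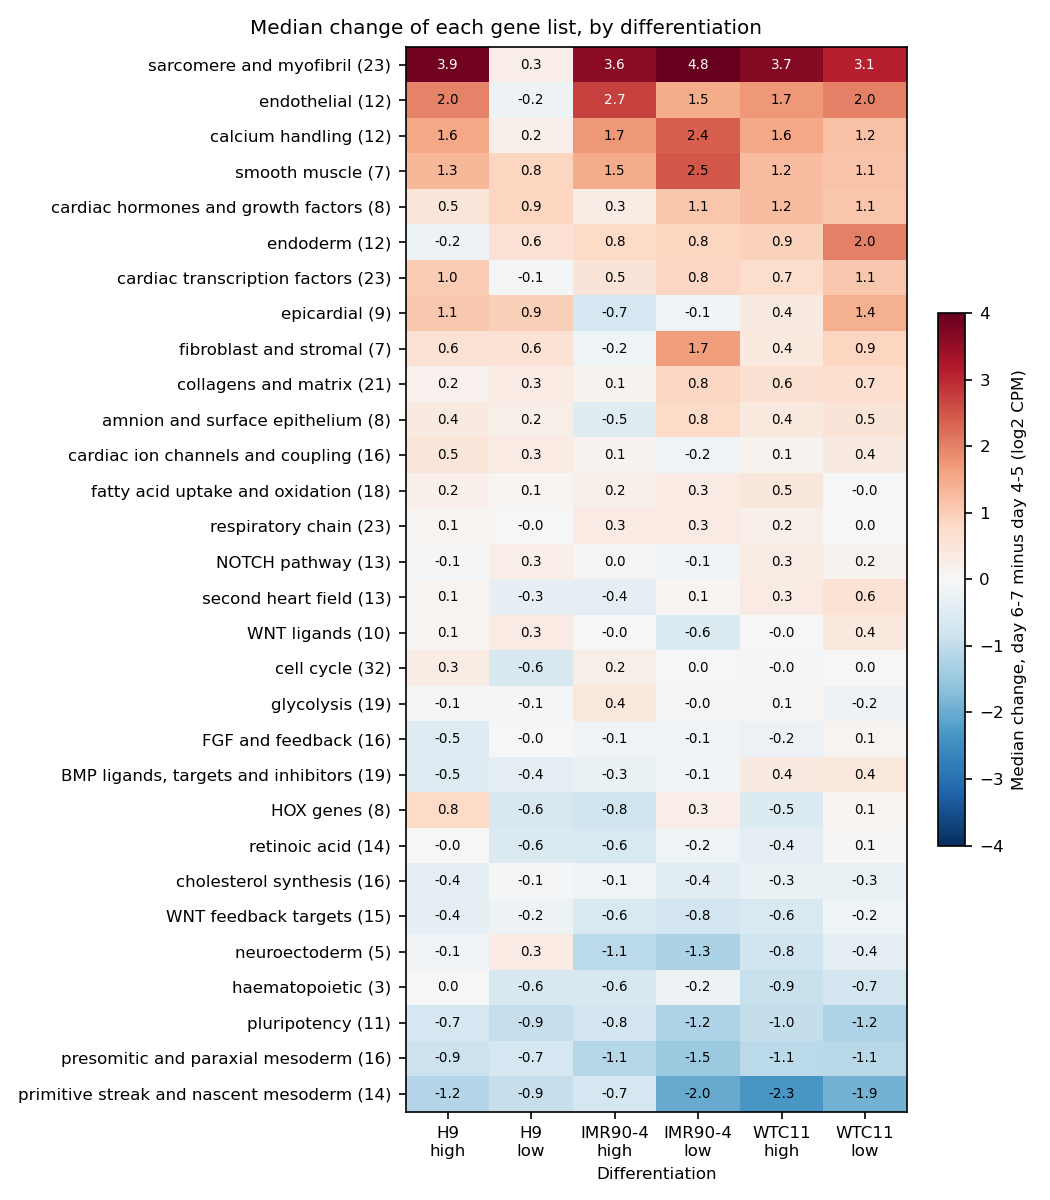
Median change in log2 CPM from day 4-5 to day 6-7 of each of 30 gene lists (rows, number of genes tested in brackets) in each differentiation (columns), red for a rise and blue for a fall. The sarcomere row was at 3.1 to 4.8 in 5 columns and 0.3 in H9 low purity, while the pluripotency, paraxial and primitive streak rows were negative in all 6.

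On lists of metabolism and proliferation most genes were not called, as for all genes tested, of which 5.69% were called. Of 18 genes of fatty acid uptake and oxidation, 4 rose and 0 fell: FABP3, ACSL1, SLC25A20 and PPARGC1A (median 0.20). ACSL1, which activates long-chain fatty acids, went from 0.413, 0.822 and 2.76 TPM to 2.31, 14 and 19.9 TPM (log2 fold change 3.32, SE 0.36), and the mitochondrial coactivator PPARGC1A rose by 3.53 (SE 0.39). In the respiratory chain list of 23, the adenine nucleotide carrier SLC25A4 and myoglobin (MB) rose (median 0.14). PDK1, a kinase that restrains pyruvate oxidation, was the only 1 of 19 glycolysis genes called (1.58, SE 0.33). On the cholesterol synthesis list of 16, 15 genes were not called (median -0.28). Without the fold threshold 8 of the 16 passed, beside 3001 of the 20203 genes tested. In all 6 pairs 6 of the 16 fell and 0 rose, beside 20.2% of genes with a single sign. PDK1 and SLC25A4 each lost the call without H9 high purity, either IMR90-4 differentiation or WTC11 high purity. MB lost it without H9 high purity, IMR90-4 high purity or WTC11 high purity, and SLC25A20 without either IMR90-4 differentiation. Of 32 cell cycle genes 31 were not called (median -0.03), and the exception was the cell cycle inhibitor CDKN1A (1.23, SE 0.26), whose call was lost without H9 high purity, IMR90-4 low purity or either WTC11 differentiation. Without the fold threshold 9 of the 32 cell cycle genes passed, and in all 6 pairs 6 fell and 3 rose. The replication licensing gene MCM6 was lower in all 6 pairs by a fitted 0.61, under the 2-fold rule. TOP2A was at 109 to 121 TPM at day 4-5 and 125 to 165 TPM at day 6-7 in 5 differentiations, and H9 low purity went from 126 to 70.8 TPM (not called). In the poly(A) wells of WTC11, from a second experiment, it was lower on day 6 in both differentiations, at 422 to 463 and then 299 to 324 TPM in high purity, and at 490 to 523 and then 298 to 342 TPM in low purity, without overlap. None of 8 HOX genes tested was called, and HOXA2 had the smallest p among them (log2 fold change -0.57, adjusted p = 0.266).

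No gene was called for a difference in the change between the high and the low purity differentiations, a question the design sets with 3 pairs of each class. In edgeR's interaction test 0 of 20203 genes passed (0%), 967 (4.79%) had an unadjusted p under 0.05, and the smallest adjusted p was 0.903. DESeq2 called 18 genes, 6 with the higher change in high purity and 12 with the higher change in low purity. TGFBI, a matrix protein induced by TGF-beta, was lower at day 6-7 in all 3 high purity pairs (-0.57, -1.42 and -0.75) and higher in all 3 low purity pairs (1.68, 0.39 and 1.45). The matrix genes TNC and SPP1 were in the same group under DESeq2, with mean changes of 0.40 and -0.45 in high purity and 2.41 and 1.99 in low purity. The largest single changes of these 3 genes were those of H9 low purity. The phosphatase gene PPM1J had the smallest p in edgeR (7.06e-05, unadjusted), at -0.06 to 0.28 in high purity and -1.39 to -1.27 in low purity. These genes were chosen after their values were seen. In the poly(A) wells of WTC11, from a second experiment, TGFBI and SPP1 were higher on day 6 than on day 4 in both classes without overlap, TGFBI at 2.41 to 5.34 and then 9.89 to 12.1 TPM in high purity and 11.8 to 21.3 and then 31.1 to 45 TPM in low purity. TNC was higher on day 6 in high purity wells and lower in low purity wells, and PPM1J was lower in high purity wells and overlapped in low purity wells. The apelin gene APLN changed by 2.00 to 3.56 in high purity and by -1.20 to 0.87 in low purity.

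Between the lines, 1 of 20203 genes (0.00495%) had a change that differed, and 1121 (5.55%) had an unadjusted p under 0.05. SYTL5, a synaptotagmin-like protein of vesicle trafficking, changed by 4.61 and 4.57 in the WTC11 differentiations, by 1.93 and 1.83 in H9 and by 0.62 and 1.06 in IMR90-4 (edgeR F test, adjusted p = 0.0324). In IMR90-4 it already stood at 18 and 27.7 TPM at day 4-5, beside 0.695 to 2.5 TPM elsewhere. The count depended on the setting: DESeq2 gave 155, and leaving out H9 high purity gave 546, H9 low purity 2 and any other differentiation 0. The hedgehog ligand gene IHH, next by p among genes with a name of their own, had changes of 3.61 and 3.88 in WTC11 and 0.32 to 1.01 in the other lines (adjusted p = 0.481).

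Poly(A) libraries of WTC11 wells from a second experiment cover day 4 and day 6 by another kit. There were 4 wells per day of a high purity differentiation at passage 52 and 4 per day of a low purity differentiation at passage 69. The wells of a class belong to 1 differentiation, and passage 69 is also that of the low purity WTC11 differentiation above; the labels do not say whether they were 1 culture. Each of the 16 wells was closest, by rank correlation across genes, to a total RNA library of WTC11 of its own day. Of the 12 largest rises, all 4 wells of day 6 lay above all 4 of day 4 in both differentiations for 11 genes, the exception being SLC16A12 in low purity. Of the 12 largest falls the same held downwards for 11, the exception being LMLN2 in low purity. Among all genes called up in 1 direction in the 6 pairs, 277 of 558 (49.6%) were separated upwards in both, beside 6.9% of the genes tested, and of those called down 148 of 309 (47.9%) downwards, beside 6.53%. WTC11 supplied 2 of the 6 pairs that chose these genes.

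The size of the change differed between the poly(A) differentiations, and for some genes the direction. No gene called with 1 sign in the 6 pairs was separated in the opposite direction in the high purity wells. In the low purity wells 38 of 558 genes called up (6.81%) and 16 of 309 called down (5.18%) were. In the same wells 313 (56.1%) and 154 (49.8%) were separated in the direction of the call. The share of all genes tested that was separated in the wells of 1 class alone is not given. These counts therefore do not show whether such reversals were few or many. HAND1 was at 230 to 243 TPM and then 65.6 to 97.8 TPM in high purity wells, and at 340 to 412 TPM and then 744 to 1090 TPM in low purity wells. NPPB was at 105 to 151 TPM and then 57.9 to 71.2 TPM in low purity wells, against 8.81 to 24.3 and 34.5 to 81.5 TPM in high purity. WNT5A and MYOCD were likewise higher on day 6 in high purity wells and lower in low purity wells, and MSX1 the reverse, all without overlap.

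TNNT2 was at 10.3 to 20.8 TPM on day 4 and 656 to 1750 TPM on day 6 in the high purity wells. In the low purity wells it was already at 457 to 524 TPM on day 4 and reached 672 to 1180 TPM on day 6. MYH6 was at 3.66 to 10.3 TPM on day 4 in high purity and at 99.4 to 118 TPM in low purity, and at 1140 to 2080 TPM and 262 to 810 TPM on day 6. The total RNA library of WTC11 low purity had 0.613 TPM of TNNT2 and 0.215 TPM of MYH6 on day 4. EOMES was at 95 to 122 TPM on day 4 in high purity wells and 11.1 to 14.6 TPM in low purity wells, and at 0.775 to 1.85 TPM on day 6 in both. ISL1, not called in the 6 pairs, overlapped between days in high purity wells (45.4 to 63.5 and 44.2 to 61.7 TPM) and was lower on day 6 in low purity wells (29.8 to 32.4 and 8.71 to 18.9 TPM). MYL2 was listed at 0 in all 8 wells of day 6. MYH7 was at 0 to 0.465 TPM in the 8 wells of day 4, at 3.74 to 10.4 TPM on day 6 in high purity wells and at 16.5 to 42.9 TPM in low purity wells.

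**Figure D5:**
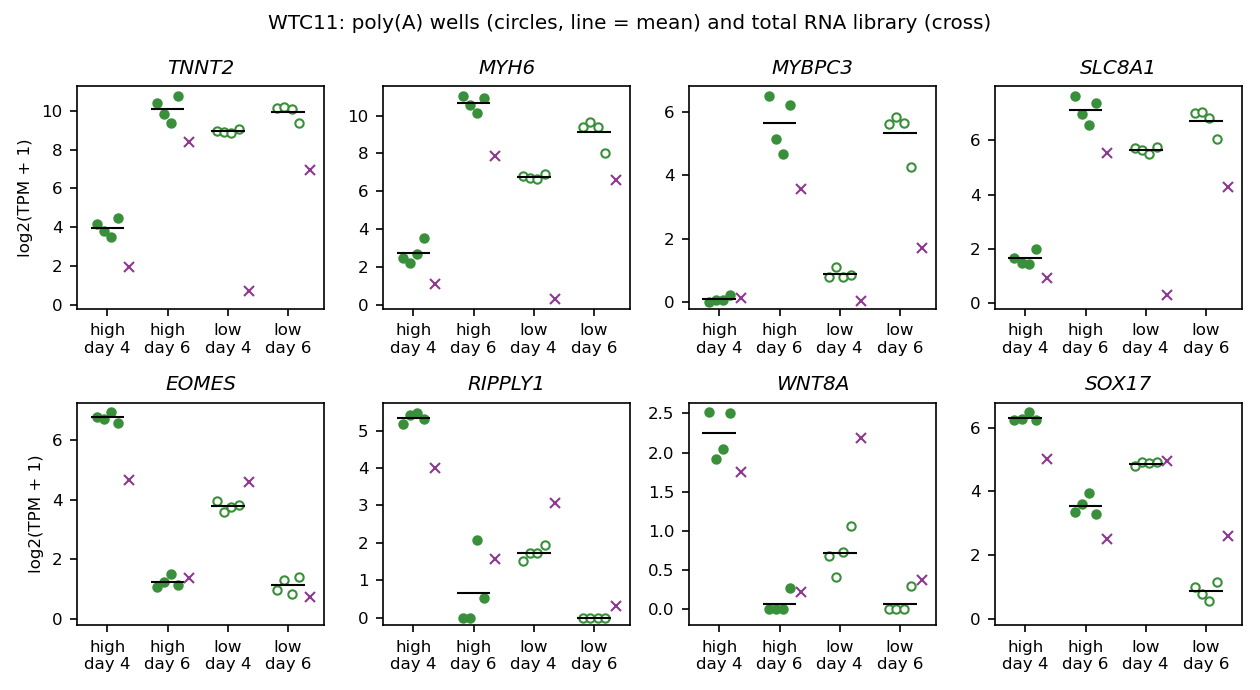
Level in log2(TPM + 1) (y axis) of 8 genes in WTC11 by purity class and day (x axis), with 4 poly(A) wells per group as circles, their mean as a line and the total RNA library of the same class and day as a cross. The 4 contractile and calcium genes of the upper row were higher on day 6 and the 4 genes of the lower row were lower in both classes, and the low purity wells of day 4 already held 457 to 524 TPM of TNNT2.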

How the data were processed

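Total RNA libraries were made with the SMARTer Stranded Total RNA kit and poly(A) libraries with the TruSeq Stranded mRNA kit, per the labels' protocols. The authors deposited gene counts (whole numbers, not normalized) and TPM. STAR 2.5.3a, featureCounts 2.0.3 and hg38 are named in the submitters' processing notes; whether counting used strand is not given in the sources used here, so overlapping and antisense genes cannot be separated. In the count table, 36 broken lines of 6 genes (TTN among them) were left out. All 12 libraries were fitted in edgeR 4.0.16 (R 4.3.3) by quasi-likelihood with filterByExpr by stage, TMM scaling and a term for each of the 6 differentiations (5 residual degrees of freedom). Purity and line were tested as interactions with stage (4 and 3 degrees). P-values were adjusted over all 20203 genes. Pairing comes from the labels: libraries of 1 differentiation deviated from their stage means together (r = 0.574 to 0.693), more than any other pair (0.410 at most). Changes per pair are differences in log2 CPM with a prior count of 2. Each SE of a fitted change is the absolute log2 fold change divided by the square root of the quasi-likelihood F. It does not measure the spread of the 6 pair changes. The fits were tested on simulated data. TPM and poly(A) levels were described without a test. Positions are those of GENCODE v29 (GRCh38).

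Genes were named by rule: the 12 largest rises and 12 largest falls with 1 sign in all 6 pairs, a mean log2 CPM of at least 2 and no numbered suffix in the symbol; up to 3 called members per list by p, or the best if none was called; 6 fixed genes; and up to 6 genes of each interaction test that passed. Some genes that the rule names are not reported here. Other genes named were chosen after their values were seen. The comparison and the 30 gene lists were chosen with earlier results of these data known. Alternatives were no replicate block, RLE scaling, no scaling, DESeq2 1.42.0, no filter, at least 10 counts in 6 libraries, no fold threshold, limma 3.58.1 on log2(TPM + 1), and leaving out differentiations, lines or a purity class.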

Additional observations from a re-analysis of the deposited data

Results flagged for a closer look

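Of 83 genes checked, 11 had 1 differentiation whose change lay far outside the other 5. The rule was the gap to its neighbour as a share of the range, set to flag about 1 independent gene in 20 by chance. The 83 genes were chosen largely by their changes in these data and share the same 6 differentiations. That rate therefore cannot be set against the 11. In 10 of the 11 the outlying differentiation was H9 low purity. Its log2 changes were 0.54 for TNNT2 (6.07 to 7.28 in the others), 1.66 for SGPP2 (5.63 to 7.36), 0.31 for MYBPC3 (4.39 to 6.47) and 0.70 for TECRL (4.72 to 6.92). They were 2.61 for SLC16A12 (4.67 to 5.68), 1.70 for PLN (4.77 to 5.82), -0.40 for MYH6 (7.58 to 9.86) and -0.45 for NKX2-5 (3.03 to 4.32). Among genes that fell elsewhere, H9 low purity changed by -0.58 for GYPE (-5.84 to -4.20) and by -0.19 for SAMD3 (-4.05 to -2.73). GYPE had 1 count and then 0 in H9 low purity, so its -0.58 lies at the floor and does not measure a fall. MYBPC3 had 4 counts at both stages there. The other was FRZB in H9 high purity, at 3.80 (1.52 to 2.33).

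The change of SYTL5 differed between the lines (edgeR adjusted p = 0.0324), with the larger rises in WTC11. TGFBI and SPP1, which encodes the matrix protein osteopontin, went down in every high purity pair and up in every low purity pair. The fitted differences were -2.13 for TGFBI and -2.57 for SPP1 (high minus low, log2). Both were picked after their values were seen, and in edgeR's test over all genes neither passed (adjusted p = 0.903). In the poly(A) wells of 1 high purity WTC11 differentiation both were higher on day 6 than on day 4 without overlap, TGFBI at 2.41 to 5.34 and then 9.89 to 12.1 TPM and SPP1 at 5.64 to 7.63 and then 12.8 to 28.6 TPM.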

How the results depend on the processing

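The count of 1150 called genes stayed within 1.5 times with RLE scaling (1156), no scaling (1165), DESeq2 (1464), no filter (1223) and the stricter filter (1162). It fell to 214 (174 up, 40 down) without the replicate block and to 452 (345 up, 107 down) in limma on log2(TPM + 1), and was 3001 without a fold threshold. Leaving out 1 differentiation gave 639 to 1757. Leaving out H9 gave 1580, IMR90-4 192 and WTC11 354, while high purity alone gave 1407 and low purity alone 1. The 868 genes called with 1 sign became 179 without the replicate block, 327 in limma, 2505 without a fold threshold, 581 to 1679 with 1 differentiation left out, 1573 without H9, 181 without IMR90-4, 343 without WTC11, 1402 in high purity alone and 1 in low purity alone. The causes were not tested. Settings with fewer differentiations have fewer pairs, and their counts went down in some and up in others. For purity, DESeq2 called 18 genes and every other setting 0. For line, DESeq2 called 155, no filter 9, limma and the fit without the replicate block 0, and leaving out 1 differentiation 0 to 546. Of the 82 called named genes, 55 lost the call without the replicate block, 16 in limma, 17 without a filter 1 to 18 when 1 differentiation was left out, 43 without WTC11, 6 without H9, 10 in high purity alone and 82 in low purity alone; of 81 tested without IMR90-4, 57 lost it; none of the named genes changed direction with a call in any setting run. Depth limits genes at a few counts, such as MYL2, which was not tested.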

Other observations

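H9 low purity had changes of its own in further genes; they were picked after their values were seen, and there is 1 library per stage, so they have no replicate check. The chemokine gene CXCL14 went from 0.41 to 16.4 TPM there, a change of 5.05 on the log2 scale, and changed by -2.06 to -1.19 in the 5 others. LONRF2 went from 0.0639 to 5.7 TPM and was at 0.263 TPM or less at day 6-7 elsewhere. COL16A1, a collagen that associates with fibrils, changed by 4.12 against -1.13 to -0.04.

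The WNT ligand gene WNT2 went the other way. It was at 9.5 TPM at day 4-5 in H9 low purity and 2.73 TPM at day 6-7, while in the 5 others it was at 0.884 TPM or less and then at 4.28 to 13.5 TPM. ACTN2, the Z-disc alpha-actinin gene, was at 5.09 and 2.1 TPM in H9 low purity, and in the others at 0.457 to 1.95 TPM and then at 5.05 to 21.7 TPM. CYP1B1, an enzyme of steroid and retinoid oxidation, was at 10 to 32.1 TPM at day 4-5 in the 5 and at 0.11 TPM in H9 low purity. By day 6-7 it was at 0.634 to 2.94 TPM in the 5 and at 0.634 TPM in H9 low purity. Its log2 change was -4.9 to -2.4 in the 5 and 2.2 in H9 low purity. The atrial light chain gene MYL4 was at 268 TPM in H9 low purity already at day 2-3, beside 1.25 to 24.3 TPM in the others, and then at 8.44 and 6 TPM.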
